A study of Mus musculus with 8 samples.

Results

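The enzymes described here carry pyruvate and fatty acids into the mitochondrion and oxidise them. They are 40 genes, taken by name from a fixed list, of 13579 genes tested: 8 act where pyruvate enters, 14 in the tricarboxylic acid cycle and 18 in beta-oxidation. The members were found as every non-control probe that the array files name for these genes, which gave 54 of 55681 probes. All 40 genes were tested, and 39 were well above background on all 8 arrays; the exception, Pdk2, missed this on 1 control array.

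C2C12 is an established mouse myoblast line that fuses into multinucleated myotubes when serum is withdrawn. Myotubes on day 4 of differentiation had been transfected with a control siRNA (4 samples) or with an siRNA against macroH2A1.1 (4 samples), and both groups were otherwise of the same line and the same day. MacroH2A1.1 is a splice form of a histone variant whose macrodomain binds ADP-ribose. One label field gives the treated samples as a knockout although their titles speak of an siRNA; they are treated as siRNA samples here. An siRNA lowers its target only in part, and a cell line is a single source. The replicates are labelled biological, with no word on separate cultures, so the p-values cover the spread among these 8 samples and that spread may be technical.

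Pyruvate made from glucose is turned into acetyl-CoA by the pyruvate dehydrogenase complex, which kinases switch off and a phosphatase switches on again. The cycle burns the acetyl group and loads NADH and FADH2 with its electrons. Long fatty acids enter through the carnitine shuttle and are shortened stepwise by beta-oxidation, whose acyl-CoA dehydrogenases pass electrons through the electron transfer flavoprotein to the respiratory chain. Differentiating muscle is known to depend on this machinery, and acetyl-CoA derived from glucose and from fat meets at citrate synthase.

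RNA (500 ng per sample) was labelled with Cy3 and hybridised singly to 1-colour Agilent arrays on 1 slide, read in 1 scan. Between 46.9% and 49.8% of the 59305 non-control spots of an array were well above background, no spot was saturated, and arrays correlated at 0.9633 to 0.9917 across genes. All 3 probes for the macroH2A1 gene (chromosome 13) were lower on every siRNA array than on every control array, by 1.42, 0.99 and 1.11 on the log2 scale, with adjusted p of 0.0335, 0.0232 and 0.0232 over 24989 probes in the fit with the replicate block, and of 0.138, 0.0538 and 0.0538 without it, where none of the 3 passed. Which of the 3 lies in an exon particular to macroH2A1.1 was not examined here. Myotube markers were present on every array, and all 12 were tested. Their median difference was 0.32, and 6 of 12 rose with the replicate block, against 4.26% of all genes. Their summed linear level was 1907 to 2655 in controls and 2325 to 3521 in siRNA samples, ranges that overlap. Of 14 interferon response genes, some of which sense foreign RNA, 6 were well above background on all 8 arrays. Of these 6, 1 (Ifit3) rose with the block, against 4.26% of all genes. Another 6 passed the filter through the siRNA arrays alone and are not counted. On the log2 scale Ifit3 read -2.79, -2.75, -1.95 and -3.01 in controls and -0.79, 1.20, 2.01 and -1.41 in siRNA samples, highest in siRNA replicates 2 and 3. Of 10 fibroblast markers, 8 were above background on all 8 arrays. Of these 0 rose and 3 fell with the block (Col1a2, Postn and Pdgfrb), against 4.26% and 3.98% of all genes. Of the 9 tested, 2 had differences above 0, Fap and Pdgfra. Fap was higher by 2.40 without overlap (adjusted p = 0.0228 with the block). It was well above background on 3 of 4 control and 4 of 4 siRNA arrays, so it passed the filter through the siRNA arrays alone and is not counted. Pdgfra gave 0.19 and did not pass (adjusted p = 0.113 with the block). Only Fabp4 of 8 adipocyte markers reached the filter, which the defining marker Adipoq did not. Of 8 macrophage markers 5 were tested, and 0 were called with the block, against 8.23% of all genes. The part of these other cell programmes in the results below was not tested, and fewer cells of a kind cannot be told apart from less RNA per cell.

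A level below is the log2 processed intensity minus the 75th percentile of its array, and a difference is macroH2A1.1 siRNA minus control on that log2 scale. Levels of different genes come from different probes and are not compared. Every difference was tested with limma over all 13579 genes, first without a block and then with the replicate number entered as one. Samples of the same number deviate together and are neighbours on the slide, and culture and position cannot be told apart as the source of this. "Rose" and "fell" are used only where the adjusted p was under 0.05, and all such calls below come from the fit with the block, since none of the genes named below passed without it.

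Only the long-chain acyl-CoA dehydrogenase gene Acadl rose among the 40. The remaining enzymes were shifted by small amounts, mostly upward: 34 of 40 differences were above 0, against 50.1% of all genes, and their median was 0.13, against 0.000384 over all genes. Without the block 0 of 40 members passed limma's test, against 0.0221% of all genes, and 7 of 40 had an unadjusted p under 0.05, all 7 higher, against 12.2% of all genes in either direction and 6.37% higher. With the block 1 of 40 rose, against 4.26% of all genes, and 0 of 40 fell, against 3.98%; in either direction 8.23% of all genes were called. The order of these shares depends on the setting: with the block, 7 of 40 members (17.5%) were called in the authors' series values, against 12.6% of all genes, and 8 of 40 (20%) with trended robust eBayes, against 15.0%, while normexp gave 4 of 40 (10%), against 13.9%. With the block 14 of 40 members (35%) had an unadjusted p under 0.05, against 28.1% of all genes, and 13 of 40 (32.5%) were also higher, against 14.5%. In either direction, the count under 0.05 was 10 of 40 (25%) with median centring, against 25.4% of all genes, and 5 of 40 (12.5%) without pair 1, against 20.1%.

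The groups did not overlap for 7 of 40 members (17.5%), all higher in the siRNA samples, against 4.3% of all genes higher; 0 members were lower without overlap, against 3.72%. The 7 are Pdha1, Idh3a, Suclg1, Acadl, Etfa, Etfb and Etfdh. With arrays centred on their median this count was 2 of 40 (5%), against 3.45% of all genes, which is near that background. In all 4 replicate pairs 20 of 40 members were higher, against 19.5% of all genes, and 2 of 40, Idh3b and Echs1, were lower, against 18.2%. Median centring left 13 of 40 higher in every pair, against 15.6% of all genes.

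**Figure D1:**
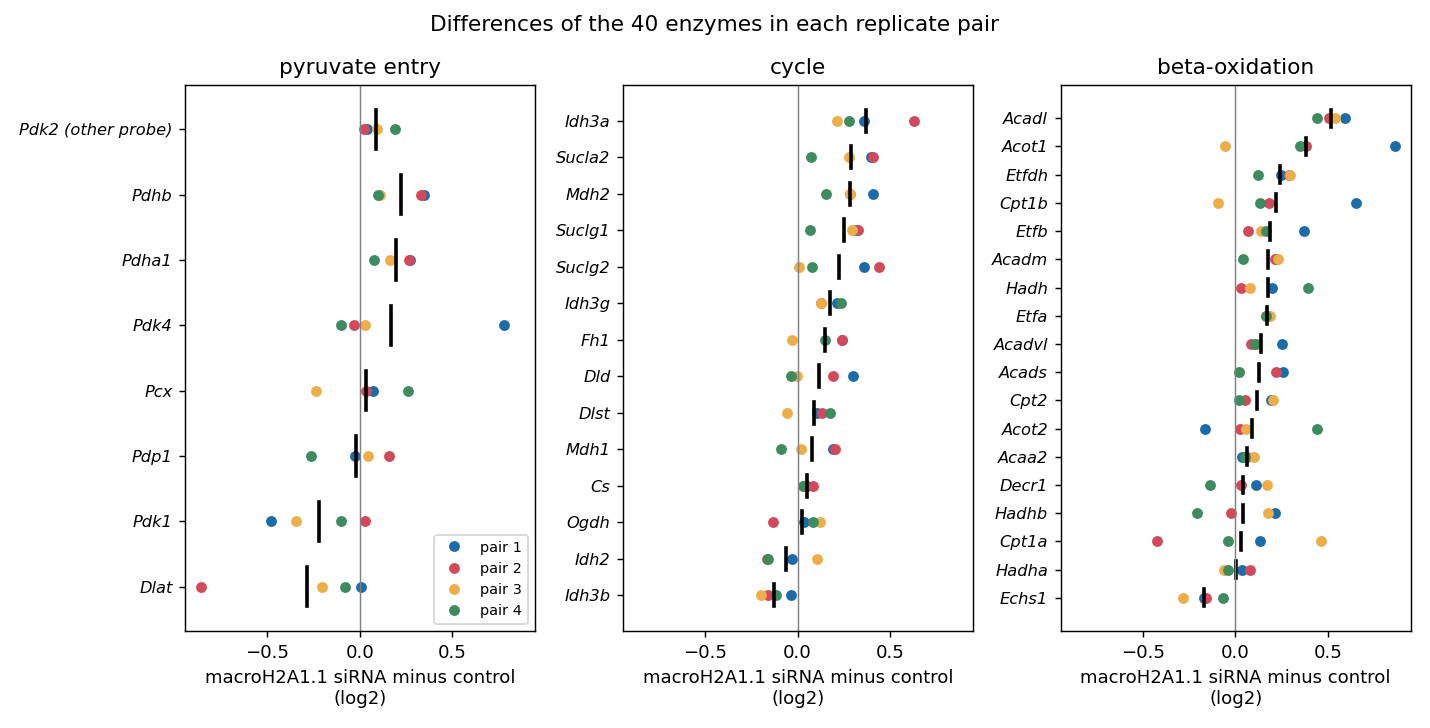
Log2 difference (macroH2A1.1 siRNA minus control) of each of the 40 enzymes in the 4 replicate pairs, in 3 panels by role; points are pairs and black bars their mean. Acadl lies between 0.44 and 0.59 in all 4 pairs; Pdk2 is drawn from its dimmer probe because 1 spot of the brighter probe was dim.

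Of the pyruvate dehydrogenase complex itself, 3 subunits are members of the pyruvate group, while Dld, its E3 subunit, is given with the cycle below. Pdha1, the catalytic E1 alpha subunit, read 3.36, 3.35, 3.51 and 3.56 in control replicates 1 to 4 and 3.63, 3.61, 3.67 and 3.64 in siRNA replicates 1 to 4. Every siRNA sample was above every control, by 0.19 on average (SE 0.080, adjusted p = 0.385; with the block SE 0.062, adjusted p = 0.115), which did not pass. Pdhb, the E1 beta subunit, differed by 0.22 (adjusted p = 0.121 with the block) and was higher in 4 of 4 pairs, though siRNA replicate 4 at 4.40 was below controls 1, 2 and 3. Dlat, the E2 acetyltransferase, went the other way: it read 1.07, 0.74, 1.01 and 0.94 in controls and 1.08, -0.11, 0.81 and 0.86 in siRNA samples. Its difference of -0.28 (SE 0.24, adjusted p = 0.720) rests on siRNA replicate 2, the lowest of the 8, whose pair differed by -0.86.

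The kinases that inactivate the complex did not move together. Pdk1, the kinase induced by hypoxia, read 1.30, 2.51, 1.09 and 0.58 in controls and 0.82, 2.54, 0.75 and 0.48 in siRNA samples. Replicate 2 stood far above the others in both groups, and the difference of -0.22 (SE 0.53, adjusted p = 0.928) was well inside that spread. The level of 9 cycling myoblast markers, as the median deviation from each gene's mean, was also highest in replicate 2 of both groups, at 1.15 in the control and 1.29 in the siRNA sample, and its part in the Pdk1 values was not tested. Pdk4, the kinase known to be induced by fasting and by fatty acids, read 0.93, 0.26, 1.39 and 1.32 in controls and 1.71, 0.24, 1.42 and 1.22 in siRNA samples. Its groups overlap, and the difference of 0.17 (SE 0.36, adjusted p = 0.919) comes from pair 1 (0.78); without pair 1 it was -0.035.

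Pdk2, the kinase most widely expressed across tissues, was read by a pair of probes that are shown because they give different answers for 1 array. Each stretch is the first 30 bases of a 60-base probe on the minus strand of mm9. The brighter lies at chr11:94887669-94887728 and the dimmer at chr11:94887980-94888039.
Pdk2 brighter probe: acaagtgactcacccctaggacagccctat
Pdk2 dimmer probe: agagggagtgggggaagatagggtccaccc
The brighter probe read 0.84, 0.77, 1.23 and -6.52 in controls and 0.88, 0.78, 1.38 and 1.31 in siRNA samples. The control 4 spot alone was low: its raw mean signal was 30.8, with a local background of 21, while the other 7 arrays gave 538 to 756, and the scanner software set no outlier flag on it. That spot sets the difference of 2.01 (SE 1.60, adjusted p = 0.702), which makes Pdk2 the only member over 1.5-fold, against 3.27% of all genes higher by that much. The dimmer probe read -0.79, -0.90, -0.42 and -0.40 in controls and -0.75, -0.88, -0.33 and -0.21 in siRNA samples. Its groups overlap, and its difference was 0.086 (SE 0.19, adjusted p = 0.948 over all probes).

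**Figure D2:**
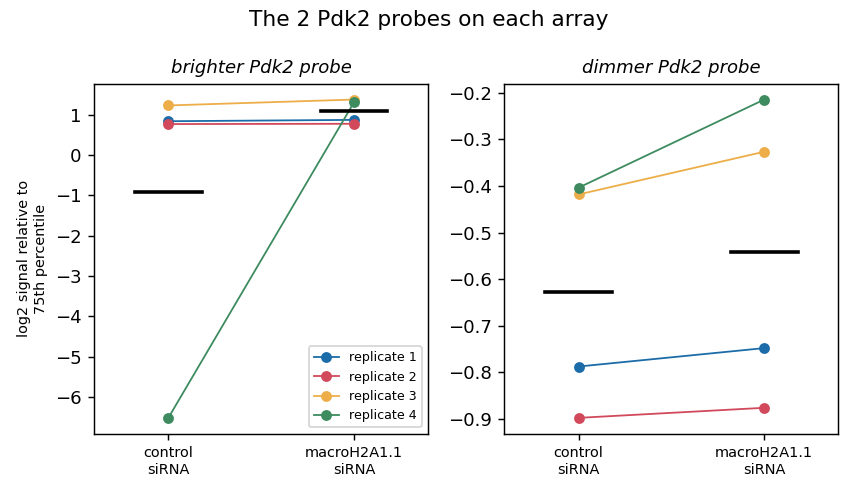
Level (log2 signal relative to the 75th percentile of the array) of the brighter and the dimmer Pdk2 probe on each array; lines join samples of the same replicate number, black bars are group means, and the panels have different axes. Control replicate 4 is at -6.52 for the brighter probe and at -0.40, level with control replicate 3, for the dimmer.

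Pdp1, a phosphatase that reactivates the complex, differed by -0.021 and Pcx, the carboxylase that turns pyruvate into oxaloacetate, by 0.032, both with overlapping groups. Over the 8 genes the median difference was 0.10, with 5 of 8 above 0, against 50.1% of all genes. With the block 0 of 8 were called, against 8.23%. That median was 0.059 with the dimmer Pdk2 probe in place of the brighter, and -0.000344 without pair 1. Of 7 other genes of pyruvate entry, 6 were tested and 0 passed with or without the block, against 8.23% and 0.0221% of all genes. Pdk3, a further kinase, gave -0.18 (adjusted p = 0.202 with the block). Mpc2, a subunit of the carrier that brings pyruvate into the mitochondrion, read 3.58, 3.61, 3.79 and 3.52 in controls and 3.44, 3.39, 3.49 and 3.49 in siRNA samples, lower without overlap by 0.17 on average but without passing (adjusted p = 0.164 with the block).

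In the cycle the larger differences lay in the NAD-linked isocitrate dehydrogenase, the succinyl-CoA ligases and mitochondrial malate dehydrogenase. Of 14 members 12 were above 0, against 50.1% of all genes, and their median was 0.13. In either fit 0 passed, against 8.23% of all genes with the block and 0.0221% without. Cs, citrate synthase, which joins acetyl-CoA to oxaloacetate and is widely used as an index of mitochondrial content, read 7.15, 7.32, 7.15 and 7.23 in controls and 7.20, 7.40, 7.18 and 7.26 in siRNA samples. It was higher in 4 of 4 pairs but by 0.049 only (SE 0.085, adjusted p = 0.894), which is less than the spread within a group.

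Idh3a encodes the catalytic alpha subunit of the NAD-linked isocitrate dehydrogenase. It read 3.36, 3.39, 3.48 and 3.49 in controls and 3.72, 4.01, 3.70 and 3.77 in siRNA samples. Every siRNA sample was above every control, and replicate 2 was the highest. The groups differed by 0.37 (SE 0.095), which did not pass without (adjusted p = 0.200) or with the block (0.0579). The other subunits did not share its size: Idh3g gave 0.18 and was higher in 4 of 4 pairs, while Idh3b gave -0.13 and was lower in 4 of 4, each with overlapping groups. Idh2, the mitochondrial NADP-linked enzyme, gave -0.062.

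Succinyl-CoA ligase makes a nucleotide triphosphate directly, from a shared alpha subunit and a beta subunit that sets ATP or GTP. Suclg1, the shared subunit, read 4.59, 4.66, 4.45 and 4.71 in controls and 4.90, 4.98, 4.74 and 4.78 in siRNA samples, without overlap, although siRNA replicates 3 and 4 lay close above control 4. Its difference was 0.25 (SE 0.095, adjusted p = 0.336; 0.0840 with the block). Sucla2, the ATP-forming subunit, read 5.14, 5.08, 5.09 and 5.04 in controls and 5.54, 5.49, 5.37 and 5.11 in siRNA samples. Replicates 1 to 3 were clearly above the controls and replicate 4 was not, for a difference of 0.29 (SE 0.11, adjusted p = 0.327; 0.0790 with the block). Suclg2, the GTP-forming subunit, gave 0.22, higher in 4 of 4 pairs.

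Mdh2, the mitochondrial malate dehydrogenase that closes the cycle, read 7.86, 7.95, 7.79 and 7.66 in controls and 8.27, 8.24, 8.08 and 7.82 in siRNA samples. It was higher in 4 of 4 pairs, by 0.28 (SE 0.12, adjusted p = 0.402; 0.0570 with the block), but siRNA replicate 4 was below controls 1 and 2. Mdh1, its cytosolic counterpart, gave 0.079. The remaining members were nearer to 0: Fh1, fumarase, gave 0.15, Dld, the E3 subunit shared with pyruvate dehydrogenase, 0.11, Dlst, the E2 of 2-oxoglutarate dehydrogenase, 0.088, and Ogdh, its E1, 0.026. All 4 had overlapping groups.

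Of 16 other genes of the cycle and its side branches, 14 were tested, with a median of 0.14 and 11 of 14 above 0, against 50.1% of all genes. With the block 1 rose and 0 fell, against 4.26% and 3.98% of all genes. Aco1, the cytosolic aconitase that doubles as an iron sensor, read -2.23, -2.28, -2.41 and -2.17 in controls and -1.90, -2.05, -2.10 and -1.87 in siRNA samples, without overlap. It rose by 0.29 (SE with the block 0.055, adjusted p = 0.0392); without pair 1, 2, 3 or 4 the adjusted p was 0.151, 0.0986, 0.135 and 0.0808. The call held in 4 of 13 settings with the block and was lost also under normexp (0.0524), median centring (0.0638), trended robust eBayes (0.122) and the authors' series values (0.142, with a difference of 0.13). Sdhc, a membrane anchor of succinate dehydrogenase, gave 0.25 without overlap (adjusted p = 0.0556 with the block), and the catalytic subunit Sdha 0.19.

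**Figure D3:**
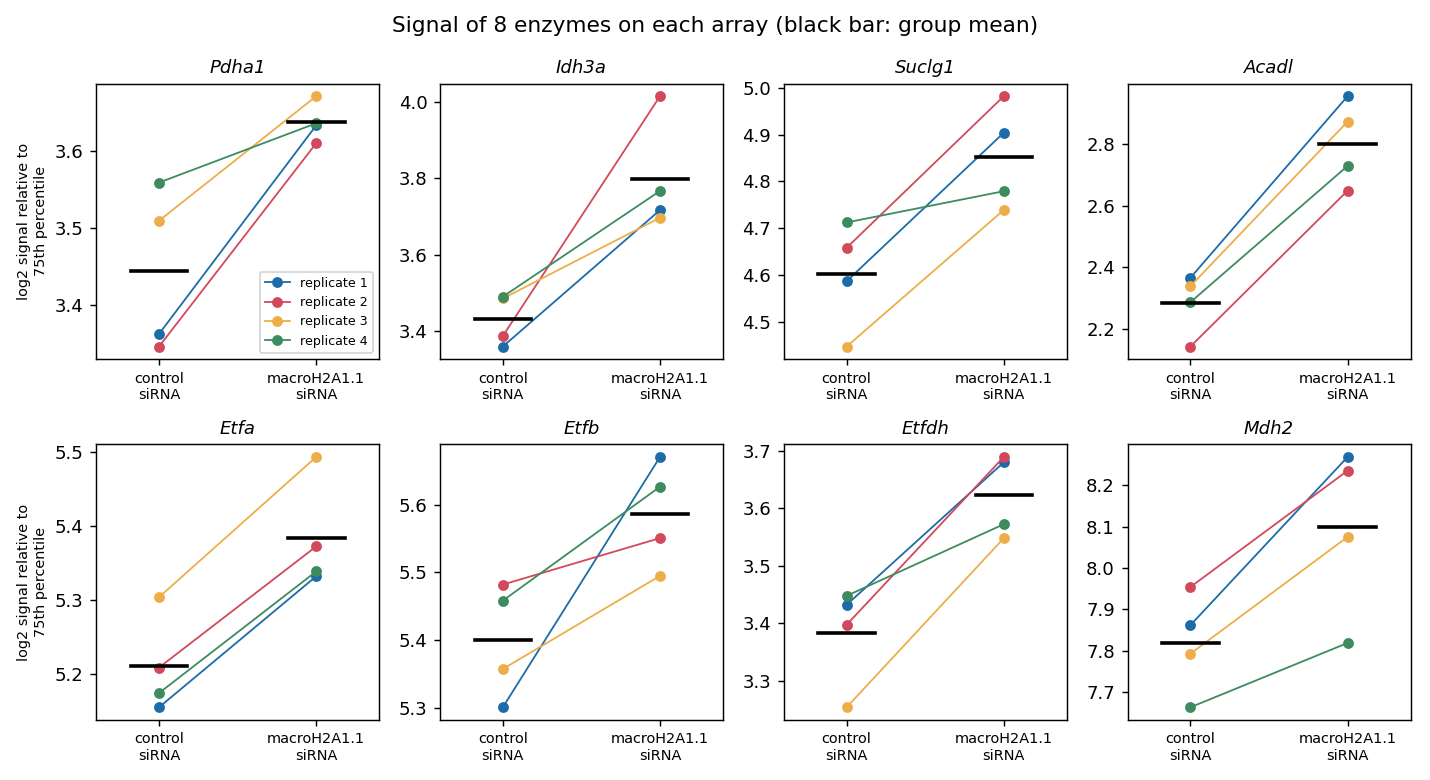
Level (log2 signal relative to the 75th percentile of the array) of the 7 enzymes whose groups did not overlap and of Mdh2, on each array; lines join samples of the same replicate number, black bars are group means, and each panel has its own axis. For Mdh2 siRNA replicate 4, at 7.82, lies within the control range.

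Beta-oxidation held the 1 called member. With the block 1 of 18 rose, against 4.26% of all genes, which is near that background, and 0 fell, against 3.98%. Of its 18 genes 17 were above 0, against 50.1% of all genes, and the median was 0.13. The groups did not overlap for 4 of 18, against 4.3% of all genes higher, in a list whose whole count dropped to 2 of 40 under median centring. Acadl, the long-chain acyl-CoA dehydrogenase, takes the first oxidation step on long and branched acyl chains in the mouse. Its single probe lies at chr1:66877673-66877732 (mm9, minus strand), and its first 30 bases are shown because it carries the call.
Acadl probe: gtcttacttgtctttcaaattctgaagagc
It read 2.37, 2.14, 2.34 and 2.29 in controls and 2.96, 2.65, 2.87 and 2.73 in siRNA samples. The lowest siRNA sample was above the highest control, and the pair differences were 0.59, 0.51, 0.54 and 0.44. Acadl rose by 0.52, or 1.43-fold (SE with the block 0.057, adjusted p = 0.0162); without the block the adjusted p was 0.115. The call was lost without pair 1 (adjusted p = 0.0777), pair 2 (0.0590) or pair 3 (0.0738), where 0, 140 and 0 genes of all 13579 passed, and with no filter on dim probes (0.0838), where 0 of 23448 genes passed and every other call with the block was lost as well. The difference stayed between 0.50 and 0.54 over the 13 settings with the block.

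The acyl-CoA dehydrogenases for other chain lengths were higher in 4 of 4 pairs but by less: Acadm (medium chain) by 0.18, Acadvl (very long chain) by 0.14 and Acads (short chain) by 0.13, each with overlapping groups and an adjusted p of at least 0.138 with the block. Downstream of all of them, the electron transfer flavoprotein and its dehydrogenase were higher on every siRNA array. Etfa, the alpha subunit, read 5.16, 5.21, 5.30 and 5.17 in controls and 5.33, 5.37, 5.49 and 5.34 in siRNA samples. Its pair differences were nearly equal, from 0.16 to 0.19, with a mean of 0.17 (SE 0.078, adjusted p = 0.422; 0.102 with the block), yet the second, dimmer Etfa probe gave 0.026 with overlapping groups.

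Etfb, the beta subunit, read 5.30, 5.48, 5.36 and 5.46 in controls and 5.67, 5.55, 5.49 and 5.63 in siRNA samples. The gap between the groups was narrow, since siRNA replicate 3 lay just above control 2, and the difference was 0.19 (SE 0.082, adjusted p = 0.412; 0.160 with the block). Etfdh, which hands the electrons to ubiquinone, read 3.43, 3.40, 3.25 and 3.45 in controls and 3.68, 3.69, 3.55 and 3.57 in siRNA samples. Every siRNA sample was above every control, by 0.24 on average (SE 0.082, adjusted p = 0.294; 0.0683 with the block), which did not pass.

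The later steps of the spiral differed among themselves. Hadha, the alpha subunit of the trifunctional protein, read 1.93, 1.81, 1.95 and 1.84 in controls and 1.97, 1.89, 1.89 and 1.80 in siRNA samples, ranges that cover each other, for a difference of 0.0046 (SE 0.078, adjusted p = 0.991) whose sign turned under normexp, median centring and the authors' series values. Hadhb, its beta subunit, gave 0.040, Acaa2, a thiolase, 0.063, and Hadh, the dehydrogenase for shorter chains, 0.18. Acaa2 and Hadh were higher in 4 of 4 pairs, with overlapping groups, and Hadh was of the size of Acadm. Echs1, the short-chain enoyl-CoA hydratase, was lower in 4 of 4 pairs, by 0.17 on average (adjusted p = 0.146 with the block), with overlapping groups.

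Decr1, the reductase needed for unsaturated chains, was read by a pair of probes that differ in size of response. Both lie on the minus strand of mm9, the brighter at chr4:15846075-15846134 and the dimmer at chr4:15844647-15844706, and the first 30 bases of each are shown.
Decr1 brighter probe: gctacagatggaccgtggtcttccacttgt
Decr1 dimmer probe: tacctcatgaatagatctatgcaagaatgt
The brighter probe gave 0.043 with overlapping groups. The dimmer read -1.73, -1.72, -1.69 and -1.71 in controls and -1.19, -1.54, -1.33 and -1.34 in siRNA samples, higher without overlap by 0.36 (SE 0.096, adjusted p = 0.266 over all probes; 0.0734 with the block). Of the 11 members with several probes, Cpt2 alone had probes that differed in sign, at 0.12 and -0.14, and neither passed.

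At the carnitine shuttle, where long-chain fatty acids enter, no member passed. Cpt1b, the muscle form of the gatekeeper, was dim and read -2.78, -3.08, -2.96 and -2.95 in controls and -2.13, -2.90, -3.06 and -2.81 in siRNA samples. SiRNA replicate 1 stands above all others, and the groups differed by 0.22 (SE 0.19, adjusted p = 0.733), with 0.65 in its pair. The other Cpt1b probe gave 0.47, with pair differences of 0.89, 0.46, 0.57 and -0.034, and did not pass either (adjusted p = 0.712 over all probes; 0.143 with the block). Cpt1a, the liver form, which myoblasts also express, gave 0.033 with pair differences from -0.42 to 0.47. Cpt2, the inner-membrane partner, gave 0.12 and was higher in 4 of 4 pairs.

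Acot1 and Acot2 encode closely related thioesterases, cytosolic and mitochondrial, that free fatty acids from CoA. Their probes are shown because such paralogs can share signal. The longest run of bases the full probes have in common was 6, which compares the probes with each other only. Neither probe was searched against the transcript of the other gene, so shared signal was not tested. They lie on the plus strand of mm9 at chr12:85358561-85358620 and chr12:85334071-85334130.
Acot1 probe: tctatggaaactggagctatccaagaaaag
Acot2 probe: ggggaaacctcatatatattatcacaatgt
Acot1 was dim, reading -3.32, -3.34, -3.69 and -3.49 in controls and -2.46, -2.95, -3.74 and -3.14 in siRNA samples. SiRNA replicate 3 was the lowest of the 8, so the groups overlap, and the 0.38 between them (SE 0.25) did not pass without (adjusted p = 0.611) or with the block (0.164). Acot2 gave 0.091, and replicate 4 was its lowest sample in both groups.

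Of 51 other genes of fatty acid handling and oxidation, 47 were tested, and their median was 0.041. In this list 32 of 47 were above 0, against 50.1% of all genes. With the block 4 rose and 0 fell, against 4.26% and 3.98% of all genes. Fabp3, the fatty acid carrier of muscle cytosol, read 3.71, 2.52, 3.53 and 3.05 in controls and 5.40, 4.69, 5.14 and 4.02 in siRNA samples. It did not overlap and rose by 1.61, or 3.06-fold (SE with the block 0.19, adjusted p = 0.0169; 0.0787 without pair 1 and 0.0743 without pair 3). Fabp3 is also an abundant gene of differentiated muscle. The myotube markers given above also had differences above 0 in 12 of 12 cases, against 50.1% of all genes, and their part in the Fabp3 values was not tested.

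Acacb and Mlycd encode opposing enzymes for malonyl-CoA, the inhibitor of carnitine palmitoyltransferase 1. Acacb, which makes malonyl-CoA at the mitochondrial surface, was dim and read -2.82, -3.85, -2.85 and -3.46 in controls and -2.03, -2.38, -1.76 and -2.73 in siRNA samples. It rose by 1.02 without overlap (SE with the block 0.13, adjusted p = 0.0206; 0.0770 without pair 1 and 0.0845 without pair 3), and by 0.40 in the authors' series values. Mlycd, which breaks malonyl-CoA down, read 2.89, 2.58, 3.04 and 3.15 in controls and 3.37, 2.96, 3.43 and 3.36 in siRNA samples. It was higher in 4 of 4 pairs and rose by 0.37 (SE with the block 0.066, adjusted p = 0.0371), although siRNA replicate 2 overlaps the controls; without pair 1, 2 or 3 the adjusted p was 0.141, 0.109 and 0.129, and with median centring it was 0.0605.

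Acox2, a peroxisomal oxidase of branched chains and bile acid intermediates, read 0.22, -0.49, 0.16 and -0.49 in controls and 0.49, 0.86, 1.11 and 0.60 in siRNA samples. It rose by 0.92 without overlap (SE with the block 0.18, adjusted p = 0.0415; without pair 1, 2, 3 or 4 it was 0.0667, 0.109, 0.135 and 0.0953, and with median centring 0.0583). Slc25a20, the carrier that brings acylcarnitine across the inner membrane, gave 0.27 (adjusted p = 0.0732 with the block). Cd36, a fatty acid transporter, gave -0.54 and did not pass.

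**Figure D4:**
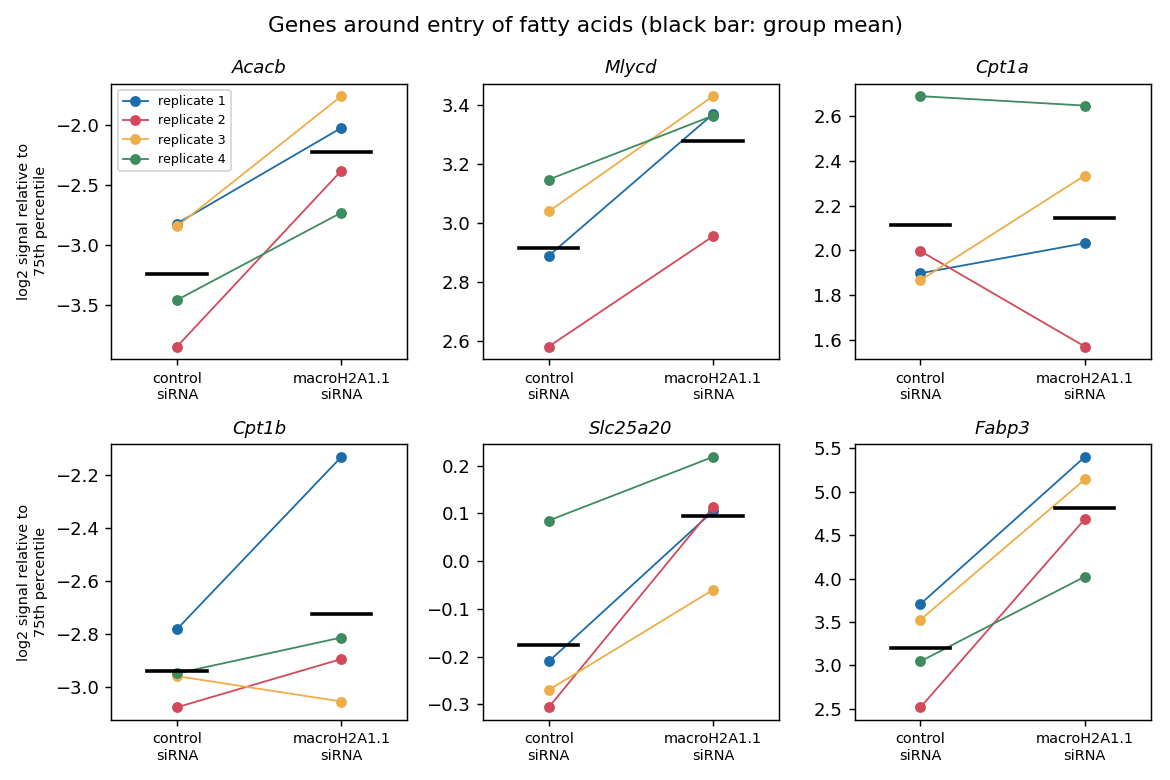
Level (log2 signal relative to the 75th percentile of the array) on each array of genes around the entry of fatty acids: Acacb and Mlycd, which make and remove malonyl-CoA, the gatekeepers Cpt1a and Cpt1b, the carrier Slc25a20 and the binding protein Fabp3. Lines join samples of the same replicate number and black bars are group means. Acacb, Mlycd, Fabp3 and Slc25a20 are higher in all 4 pairs, while Cpt1b is higher in 3 of 4 and Cpt1a in 2 of 4.

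For 6 pairs of enzymes, the array-by-array difference between the pair was compared between groups. The enzymes of a pair share a step, except Pdp1 and Pdk4, which act on pyruvate dehydrogenase in opposite directions. The test was an exact permutation test (two-sided, 70 splits, smallest possible p 0.0286), adjusted over the 6. What is compared is the response of the first enzyme minus that of the second, not their levels. The response of Acadl minus that of Acadvl was 0.38 (exact p = 0.0286, adjusted 0.0857), with every siRNA sample above every control. For Mdh2 and Mdh1 it was 0.20, also without overlap (exact p = 0.0286, adjusted 0.0857), and for Idh3a and Idh2 0.43, with overlap (exact p = 0.0571, adjusted 0.114). None of the 3 passed after adjustment. Acadl against Acadvl and Mdh2 against Mdh1 were already at the smallest possible exact p. Adjusted over 6 pairs, they could pass only if more of the pairs reached it too. Their not passing therefore decides nothing. Within replicate pairs the smallest exact p the design allows is 0.125. For Cpt1b against Cpt1a (0.19), Sucla2 against Suclg2 (0.068) and Pdp1 against Pdk4 (-0.19) the adjusted p was 0.714, and this does not show that these pairs respond alike.

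The level of the whole list, as the median deviation of the 40 genes from their own means, was -0.089 to -0.052 on control arrays and 0.029 to 0.097 on siRNA arrays. These ranges do not overlap; a list level over chosen genes is a description and carries no test. By pair, the median difference over the members was 0.21, 0.11, 0.10 and 0.075 for pairs 1 to 4. Myotube markers had larger pair medians, 0.33, 0.38, 0.30 and 0.27, while their levels overlapped between groups. Whether the enzymes and the muscle programme move together was not tested.

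**Figure D5:**
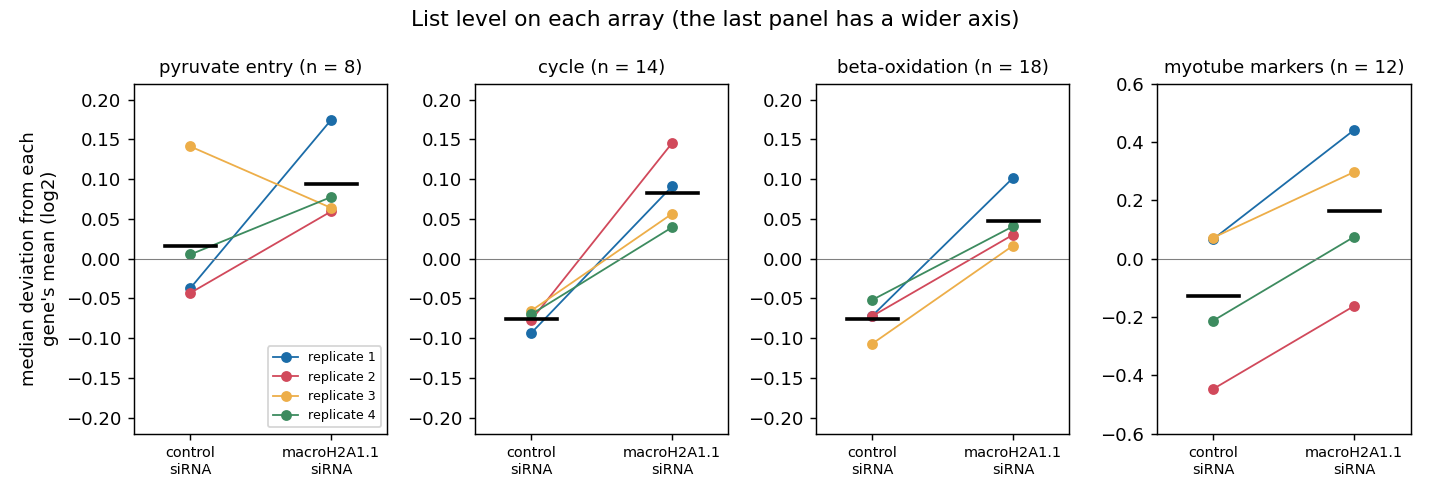
Median deviation of each list from the mean of its own genes (log2) on every array, for the 8, 14 and 18 enzymes of the 3 roles and for 12 myotube markers; lines join samples of the same replicate number, black bars are group means, and the last panel has a wider axis. For the cycle and beta-oxidation all siRNA arrays lie above all control arrays, while for pyruvate entry control replicate 3 lies above 3 of the 4 siRNA arrays.

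Among 13 regulators known to control such genes, all tested, the median was 0.12. Of the 13, 11 were above 0, against 50.1% of all genes, and 2 rose with the block, against 4.26%. Pparg, a nuclear receptor of fat storage, read 0.97, 1.64, 1.45 and 1.09 in controls and 1.36, 1.95, 1.80 and 1.59 in siRNA samples; it was higher in 4 of 4 pairs and rose by 0.39 (SE with the block 0.060, adjusted p = 0.0276). Its adjusted p was 0.116, 0.0770, 0.101 and 0.0599 without pairs 1 to 4. Fabp4, the 1 adipocyte marker that reached the filter, did so through the siRNA arrays alone: it was well above background on 2 of 4 control and 4 of 4 siRNA arrays, and its part in the Pparg values was not tested. Nrip1, a corepressor known to restrain oxidative genes in mouse muscle, read 1.39, 0.94, 0.66 and 0.94 in controls and 1.74, 1.24, 0.96 and 1.11 in siRNA samples. It rose by 0.28 (SE with the block 0.059, adjusted p = 0.0485), and its adjusted p was 0.178, 0.135, 0.153 and 0.0681 without pairs 1 to 4 and 0.0958 with median centring. Esrra, the estrogen-related receptor that binds promoters of many of these enzymes, did not overlap between groups, reading 3.49 to 3.57 in controls and 3.72 to 3.77 in siRNA samples, but its difference of 0.20 did not pass (adjusted p = 0.0741 with the block). Ppargc1a, the coactivator that acts with it, gave 0.59 (adjusted p = 0.0919 with the block).

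Promoters were searched because several members lie slightly above 0 together. RefSeq promoters (GRCm38.p6, 250 bases before to 50 after the start) were at hand for 35 of 40 members and 10481 tested genes, and both strands were searched. The estrogen-related receptor motif TNAAGGTCA matched 0 of 35, against 0.878% of tested genes, and its core AAGGTCA, which lies within the longer motif, matched 2 of 35 (Acadm and Ogdh), against 3.95%. AGGTCA repeated after 1 base, the form bound by PPARs, matched 0 of 35, against 0.0286%. The nuclear respiratory factor 1 motif, GCGCA followed directly by its reverse complement, matched 1 of 35, Etfdh, against 2.14%. GGGCGG matched 24 of 35 (68.6%), against 66.0%, and CCAAT 19 of 35 (54.3%), against 42.5%. These shares describe letters in a window only, and no match says nothing of a factor. Of the members with a match, Etfdh and Acadm are shown, each on the minus strand of GRCm38.p6 upstream of a start, with the motif in capitals; Etfdh is at chr3:79628861-79628920 and Acadm at chr3:153944861-153944893, where the core appears as its reverse complement.
Etfdh promoter stretch: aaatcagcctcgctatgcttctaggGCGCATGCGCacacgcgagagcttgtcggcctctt
Acadm promoter stretch: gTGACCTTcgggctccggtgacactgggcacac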

How the data were processed

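Total RNA of C2C12 myotubes, 4 samples per siRNA, was measured on 1-colour Agilent arrays. Per the file headers, the authors' spot intensity values come from Agilent Feature Extraction 10.7.3.1 with probe positions on mm9, and the processed intensity is background-subtracted. The deposited series values are log2; every column has the median 6.29 and the range 5.65 to 17.98, and follows its own array's log2 mean signal (r from 0.9976 to 0.9995), with centring and background handling not given in the sources used here. They served as an alternative.

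Outlier spots (143 to 236 per array) were set missing, control spots left out, spots of 1 probe averaged, and log2 processed intensity centred on each array's 75th percentile. A probe was kept (24989) if every array of either group (4) read it well above background, and the brightest kept probe stood for each of 13579 genes, named by accession or symbol through RefSeq (GRCm38.p6, names only). Of 54 member probes, 51 accessions matched it, with the same symbol.

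limma 3.58.1 (R 4.3.3) compared groups without covariates, with Benjamini-Hochberg adjustment and a threshold of 0.05, and with the replicate block as an alternative: same-numbered samples' deviations correlated at 0.61, 0.55, 0.66 and 0.41, so the numbers pair them. Each of the 4 array columns holds 1 group, each of the 2 rows both. The fit was tested on simulated data. Array number limits the precision. Alternatives were normexp (offset 50), quantile normalization, median centring, series values, filters, mean of probes, row and column blocks, trended robust eBayes and leaving out arrays. The members and lists were chosen with earlier results of these data known. Values of every array are given for members that passed, did not overlap, were among the 3 largest of a role or were anchors (Cs, Pdha1, Pdk4, Cpt1b, Acadl, Hadha). Of other lists they are given for up to 4 called genes, else the 2 largest. Decr1's probe, Sdhc, Sdha, Ifit3, Col1a2, Postn, Pdgfrb, Fap, Pdgfra, Slc25a20, Cd36, Esrra and Ppargc1a were named after their values were seen.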

Additional observations from a re-analysis of the deposited data

Results flagged for a closer look

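In 5 of 80 sets of 4 samples (40 genes, 2 groups), 1 sample stood apart from the other 3 by more than Dixon's 95% limit, where chance gives about 5%. Pdk2 in control replicate 4 was at -6.52, with the other controls at 0.77 to 1.23. Pdk1 in siRNA replicate 2 was at 2.54, with the others at 0.48 to 0.82. Cpt1a in control replicate 4 was at 2.69, with the others at 1.87 to 1.998. Idh3g in control replicate 3 was at 6.04, with the others at 5.76 to 5.79. Acadvl in siRNA replicate 1 was at 6.06, with the others at 5.77 to 5.82.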

How the results depend on the processing

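The number of genes past the threshold was 3, and 1 with median centring, 5 with probes well above background on all 8 arrays, 10 with the array row as a block, 7 with the column as a random block and 1118 with the replicate block, which took members from 0 to 1 (Acadl, 0.52); leaving out 1 array gave 0 to 11 genes. With the replicate block (1118 genes, 1 member), normexp gave 1889 and 4 (Idh3a, Suclg1, Mdh2, Acadl), the series values 1711 and 7, trended robust eBayes 2042 and 8, the stricter filter 1363 and 3 (7.5% of members, against 10.5% of genes), and no filter 0 and 0 (3906 genes and 10 members at an unadjusted p under 0.05, of 23448). Leaving out a pair gave 0, 140, 0 and 637 genes and 0 to 1 member; the 0 genes without pair 1 or 3 stand beside 2728 and 2904 at an unadjusted p under 0.05, and the cause was not tested. The beta-oxidation median was 0.098 (0.0975) in the series values and 0.092 to 0.17 with arrays or pairs left out, the cycle median 0.10 to 0.17, and the pyruvate median -0.000344 to 0.16 without a pair. Members without overlap numbered 2 with median centring (3.45% of all genes), 5 with quantile normalization (4.16%) and in the series values (3.75%), and 7 to 11 with samples left out (4.88% to 9.15%). Signs turned for Hadha (-0.0099 with normexp, -0.012 with median centring, -0.0025 in the series values, -0.022 to 0.034 with arrays left out and -0.0057 and -0.020 without pairs 1 and 2), Pdk1 (-0.69 to 0.16 with arrays left out), Pdk4 (-0.068 to 0.47, and -0.035 without pair 1), and, without control 4 or siRNA 1, Cpt1b against Cpt1a (-0.0086, -0.050; highest 0.38) and Sucla2 against Suclg2 (-0.0030, -0.028). In the main processing the block changed no other member's call. The enzyme pairs were not run under the random column block or trended robust eBayes, which a permutation test does not use.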
